A study of Mus musculus with 28 samples.

Results

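The genes described are 10 genes that cells switch on in response to type I interferon: Ifit1, Ifit2, Ifit3, Isg15, Rsad2, Usp18, Oasl2, Ifi44, Irf7 and Mx1. They were chosen by gene symbol, and all 10 were found among the 55341 gene names of both count tables and passed the filter on low counts in each of them. Their RNA was followed in 28 tumors of AB1-HA, a mouse mesothelioma line grown under the skin of the right flank of female BALB/c.AusBP mice aged 8 to 10 weeks, and whole tumors were taken 7 days after treatment began. The 4 PBS tumors received vehicle, the 5 ICB tumors immune checkpoint blockade (1 dose of anti-CTLA-4 and 3 doses of anti-PD-L1, 100 µg each), the 5 5-FU tumors 75 mg/kg of 5-fluorouracil into the tail vein, and the 4 cisplatin tumors 6 mg/kg of cisplatin into the peritoneum. The 5 5-FU+ICB and the 5 cisplatin+ICB tumors received both kinds of treatment. All groups carried the same implanted line, treated once tumors measured 20 to 25 mm2, so the data describe 1 transplanted tumor model at 1 time point. The labels name separate tumors but no separate experiments, and p-values measure the spread between these tumors.

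Type I interferons are secreted proteins that cells make after sensing viral or misplaced nucleic acid. They bind a receptor formed by Ifnar1 and Ifnar2, whose kinases Jak1 and Tyk2 activate transcription factors of the STAT family. With Irf9, these form a complex that binds the interferon-stimulated response element (ISRE) in front of target genes. Interferon gamma, made mainly by activated T cells and NK cells, uses another receptor, and its signal reaches genes through the gamma-activated site (GAS), and several genes answer to both kinds of interferon. In tumors, type I interferon is known for helping dendritic cells to prime T cells.

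The total was between 23541733 and 33950805 counts per tumor. Levels are given as CPM, counts scaled to a common library total after trimmed mean normalisation, so that tumors of different depth can be compared, and 3 counts correspond to 0.0884 to 0.127 unscaled CPM. Of 7 mesothelial markers, Msln was above 3 counts in 28 of 28 tumors, whereas Upk3b never exceeded 2 counts and Lrrn4 was above 3 counts in only 13 tumors. Cisplatin+ICB replicate 1 stood apart, with a normalisation factor of 0.685 and the lowest mitochondrial share (1.03% of counts). Its Msln (654 CPM) was the highest of the 28 tumors, and its level of the leukocyte gene Ptprc (118 CPM) the lowest of its group. Calls of the 10 genes in comparisons of its group are given with and without this tumor. 5-FU+ICB replicate 5 had the highest mitochondrial share, at 16.1%, and stood apart in its mesothelial markers. Msln was at 0.50 CPM there, the lowest of the 28 tumors and against 34.4 to 167 CPM in the other 4 of its group, and made up 0.452% of the marker sum. Krt8, Krt18 and Krt19 were at 33.4, 27.2 and 48.9 CPM, each the highest of the 28. Calls of the 10 genes with 5-FU+ICB against PBS are given with and without this tumor. The mitochondrial share also moved with the groups, from 1.53% to 2.37% in PBS and 1.72% to 2.76% in cisplatin tumors to 2.69% to 4.82% in ICB and 2.72% to 6.80% in 5-FU tumors, and its part in the members' change was not tested. The PBS and ICB tumors enter several of the comparisons below, which are therefore not independent of each other.

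The promoters of the genes are shown first because the ISRE is the element through which type I interferon acts on many of its targets. RefSeq (GRCm38.p6) gave windows from 250 bases before to 50 bases after a transcription start for 8 of the 10 genes, all but Usp18 and Mx1. The ISRE core was searched as GAAANNGAAA or, for the other strand, TTTCNNTTTC, where N is any base. It was found in the windows of Ifit1, Ifit3, Isg15 and Rsad2, and in 3.44% of all 32851 windows. The stretches that hold it, with 20 bases on either side, are printed below 5' to 3' along the gene, with the matches in capitals.
Ifit1 (chr19:34640765-34640833, plus strand): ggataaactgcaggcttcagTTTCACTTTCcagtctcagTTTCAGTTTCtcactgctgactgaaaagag
Ifit3 (chr19:34583353-34583436, plus strand): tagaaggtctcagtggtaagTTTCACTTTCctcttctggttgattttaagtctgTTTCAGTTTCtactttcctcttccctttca
Isg15 (chr4:156200855-156200916, minus strand): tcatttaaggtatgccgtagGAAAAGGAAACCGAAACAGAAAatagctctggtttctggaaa
Rsad2 (chr12:26456543-26456592, minus strand): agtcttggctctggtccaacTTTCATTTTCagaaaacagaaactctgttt
The matches of Ifit1 began 104 and 85 bases before the start, and those of Ifit3 began 156 and 122 bases before it. In Isg15, 3 matches overlapped and began 78, 72 and 66 bases before the start, and the single match of Rsad2 began 120 bases before it. The GAS motif TTCNNNGAA, which reads the same on both strands, was found once, in 1 of the 2 windows of Ifit2, and in 8.30% of all windows. The windows of Oasl2, Ifi44 and Irf7 held neither motif in these letters.

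The 10 genes differ in what their proteins do. Ifit1, Ifit2 and Ifit3, neighbours on chromosome 19 between 34550694 and 34650009, encode proteins that bind viral RNA or one another and hold back its translation. Isg15 (chromosome 4, 156199424 to 156200818) encodes a ubiquitin-like protein that is attached to other proteins, and Usp18 (chromosome 6, 121245906 to 121270917) encodes the protease that removes it and that also blocks signalling at Ifnar2. Rsad2 (chromosome 12, 26442746 to 26456452) encodes viperin, which makes a chain-terminating nucleotide, and Mx1 (chromosome 16, 97447035 to 97462907) a GTPase against influenza virus that is disrupted in common laboratory strains, BALB/c among them. Oasl2 (chromosome 5, 114896936 to 114912234) belongs to the oligoadenylate synthetase family. Ifi44 lies on chromosome 3 between 151730922 and 151749960, and Irf7 (chromosome 7, 141262706 to 141266481) encodes the transcription factor that amplifies interferon alpha production. Coordinates are from GENCODE M21 on GRCm38.

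Per kilobase of merged exon, Isg15 had the highest level, with a median of 60.8 CPM per kilobase over the 28 tumors. It was followed by Irf7 at 47.4 and Ifit3 at 37.7, while Rsad2 (5.03) and Mx1 (3.94) were lowest. In PBS tumors the genes were far above the floor, and the lowest count of any of them in any tumor was 110, for Rsad2. Oasl2 varied most among PBS tumors, with an SD of 0.71 on the log2 CPM scale, and Isg15 least (0.26). Reads of Ifit3 can be hard to place, since 61.8% of its distinct 31-base sequences also occur in the neighbouring copy Ifit3b. Ifit1 shared 10.8% with other genes, mostly Ifit1bl2, Isg15 shared 13.1%, and Ifit2 shared none. The same 84 promoter bases printed for Ifit3 also stand in front of Ifit3b.

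**Figure D1:**
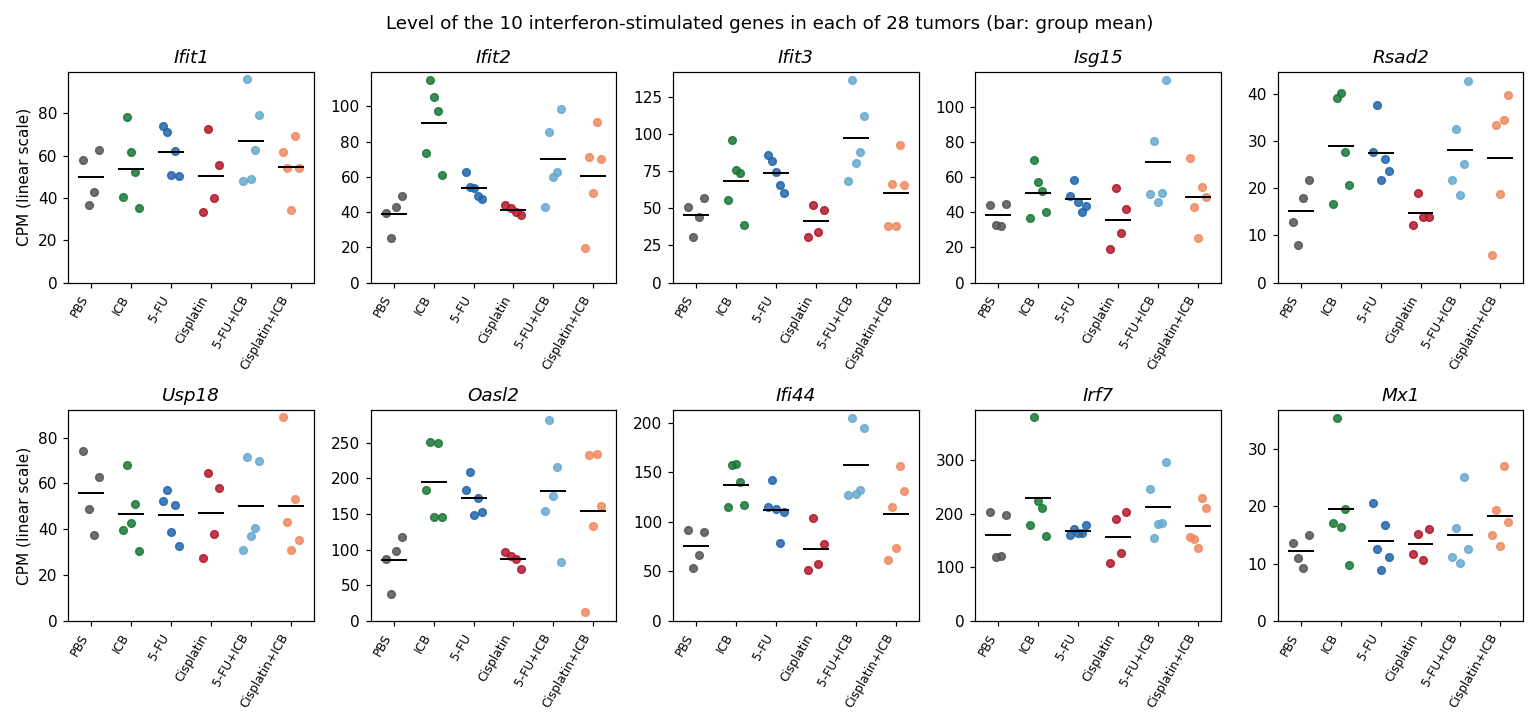
CPM of each of the 10 genes (linear vertical axes that differ between panels) in every tumor by treatment group, where a point is 1 tumor and a bar the group mean. All ICB tumors are above all PBS tumors for Oasl2, Ifit2 and Ifi44, Oasl2 is also above PBS in all 5-FU tumors, 1 cisplatin+ICB tumor lies at 12.6 CPM for Oasl2, and Usp18 shows no such step.

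The first comparison asked how checkpoint blockade alone changed these genes. Against PBS, 4 of 10 genes rose with ICB (Ifit2, Oasl2, Rsad2 and Ifi44) and 0 fell, where a call needs an adjusted p under 0.05 from edgeR's quasi-likelihood test and an absolute log2 fold change over 0.5. Of all 17916 genes tested, 19% were called higher and 18.8% lower. The median log2 fold change of the 10 genes was 0.67, beside -0.03 for all genes, and 9 of them had a value above 0. The share of the 10 genes called higher was above that of all genes in this fit, but the difference was not tested. Fitted with the cisplatin groups, the same tumors gave 2 of 10 higher, beside 15.5% of all genes. DESeq2 called 5 of 10 higher, beside 11.6% of all genes.

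Oasl2 was at 86.6, 38.2, 97.8 and 117 CPM in the PBS tumors and at 183, 252, 146, 250 and 145 CPM in the ICB tumors. Every ICB tumor was above every PBS tumor, and the log2 fold change was 1.25 (SE 0.31, adjusted p = 0.00497). Ifit2 stood at 39.2, 25.2, 42.6 and 49.1 CPM in PBS and at 73.5, 115, 105, 97.6 and 60.9 CPM in ICB tumors, also with no overlap, and had a log2 fold change of 1.25 (SE 0.24, adjusted p = 0.000991). For Ifi44 the PBS tumors lay between 53.0 and 91.4 CPM and the ICB tumors between 115 and 158 CPM, a log2 fold change of 0.90 (SE 0.21, adjusted p = 0.00309). Groups without overlap in this direction were found for these 3 genes of the 10 and for 15.8% of all genes. Rsad2 rose by 0.98 (SE 0.31, adjusted p = 0.0182), with 15.1 ± 5.95 CPM (SD, n = 4) in PBS and 28.9 ± 10.7 CPM (SD, n = 5) in ICB tumors, but its lowest ICB tumor (16.6 CPM) lay below the highest PBS tumor (21.7 CPM). Rsad2 lost its call without PBS replicate 1 or 2, and both Rsad2 and Oasl2 lost it when the same tumors were fitted together with the cisplatin groups, unless cisplatin+ICB replicate 1 was left out. Ifit2 and Ifi44 kept theirs in each of these fits.

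The other 6 genes were not called with ICB by edgeR. Ifit3 was close to the threshold, at a log2 fold change of 0.62 (SE 0.25, adjusted p = 0.0520), and its values in ICB tumors ran from 38.8 to 96.1 CPM, with a PBS range of 30.5 to 57.0 CPM. DESeq2 called it beside the 4 others (11.6% of all genes higher), as did edgeR with DESeq2's size factors or without PBS replicate 4, ICB replicate 1 or ICB replicate 5, and without the last it called Mx1 too. Mx1 had a log2 fold change of 0.73 with a larger SE of 0.35, and 1 ICB tumor at 35.4 CPM stood above the other 4, which were at 9.67 to 19.4 CPM. Irf7 (0.55, SE 0.26, adjusted p = 0.0939) likewise had 1 high ICB tumor, the same replicate 2, at 380 CPM against 158 to 223 CPM. Isg15 (0.44) and Ifit1 (0.14) had 95% intervals of -0.10 to 0.98 and of -0.39 to 0.66. Usp18, the negative regulator, was the only gene of the 10 below 0 in this comparison, at -0.24 (95% interval -0.84 to 0.35), with 46.5 ± 14.1 CPM in ICB and 55.9 ± 16.1 CPM in PBS tumors.

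**Figure D2:**
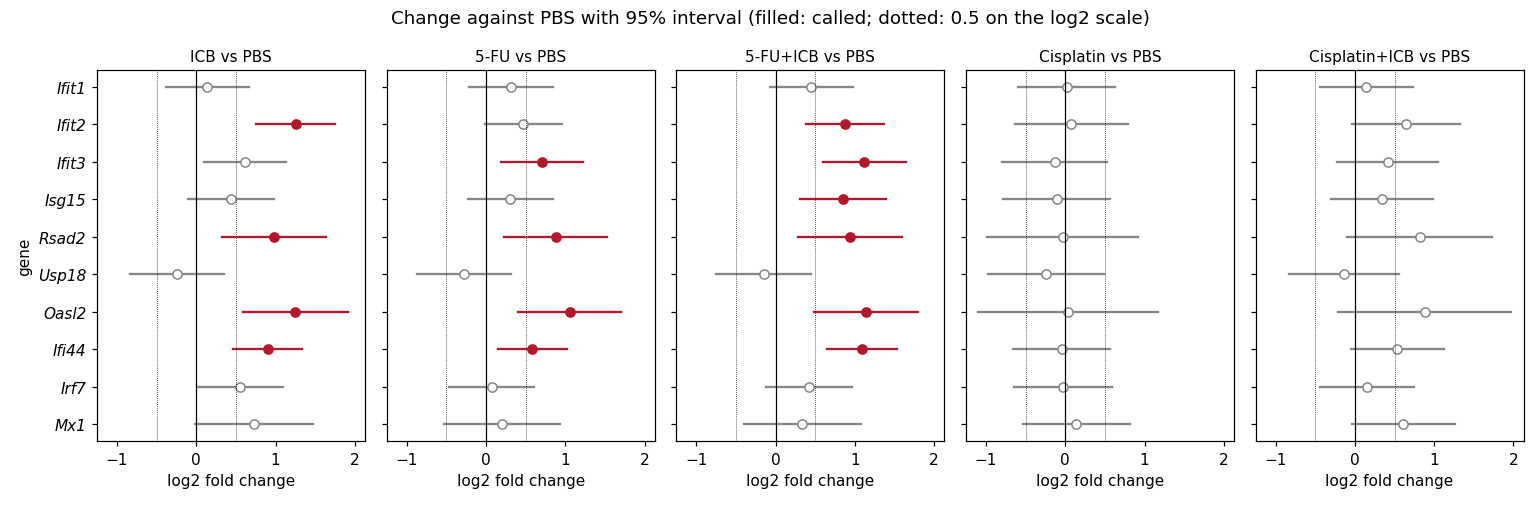
Log2 fold change of each gene against PBS with its 95% interval in 5 treatments, filled where the gene was called and with dotted lines at 0.5 in either direction. Calls appear with ICB, 5-FU and 5-FU+ICB, the intervals with cisplatin all span 0, and Usp18 lies left of 0 in all 5 panels.

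The second comparison asked whether 5-FU alone moved the same pathway. With 5-FU, 4 of 10 genes were called higher (Ifit3, Rsad2, Oasl2 and Ifi44) and 0 lower, while 9.98% of all genes tested were called higher and 13.0% lower. The median log2 fold change was 0.39 for the 10 genes and -0.01 for all genes. Oasl2 had the highest fold change with 5-FU, with levels of 183, 208, 149, 173 and 153 CPM in 5-FU tumors, all above the PBS maximum of 117 CPM, a log2 fold change of 1.05 (SE 0.31, adjusted p = 0.0218). Rsad2 was at 27.6, 37.7, 21.7, 26.3 and 23.6 CPM (log2 fold change 0.88, SE 0.31, adjusted p = 0.0442). The lowest of these tumors lay just above the highest PBS tumor. Ifit3 had 85.5, 81.6, 74.1, 66.0 and 60.3 CPM, again above all PBS tumors, with a log2 fold change of 0.71 (SE 0.25, adjusted p = 0.0435). With Ifit3b counts added it was 0.78 (adjusted p = 0.0382), an alternative chosen after seeing the data. Groups did not overlap for these 3 genes and for 9.27% of all genes.

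Ifi44 rose by 0.59 (SE 0.21, adjusted p = 0.0449), with 1 of 5 5-FU tumors (78.8 CPM) inside the PBS range. Ifit2, the most clearly raised gene with ICB, was at 47.4 to 62.5 CPM with 5-FU and was not called (log2 fold change 0.47, SE 0.23, adjusted p = 0.135). Irf7 was nearly uniform in 5-FU tumors, between 161 and 180 CPM, at a log2 fold change of 0.07. Ifit1 (0.32), Isg15 (0.31), Mx1 (0.20) and Usp18 (-0.28) were not called. The calls with 5-FU depended on single tumors. Without PBS replicate 2, the tumor with the lowest PBS level of 7 of the 10 genes, 0 genes were called (3.73% of all genes higher), leaving out any 1 of 7 other tumors left 1 or 2 (3.43% to 10.5%), and only leaving out PBS replicate 4 kept 4 (8.66%). All 4 calls were lost when all 6 groups were fitted together (2.84% of all genes higher), and Rsad2 and Ifi44 were lost with no filter on low counts (3.82%).

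With 5-FU+ICB, 6 of 10 genes were called higher than in PBS tumors (Ifit2, Ifit3, Isg15, Rsad2, Oasl2 and Ifi44) and 0 lower, against 21.9% of all genes higher and 18.7% lower. The median log2 fold change was 0.86, and -0.04 over all genes. Ifit3 was at 68.1, 136, 80.7, 87.6 and 112 CPM, all above the PBS maximum of 57.0 CPM, with a log2 fold change of 1.12 (SE 0.25, adjusted p = 0.00260). Ifi44 reached 127, 205, 129, 132 and 195 CPM, likewise without overlap, a log2 fold change of 1.09 (SE 0.21, adjusted p = 0.00125). Isg15 was called in this comparison with PBS, and not with ICB or 5-FU alone. Its 5 tumors were at 50.1, 80.3, 46.1, 51.1 and 115 CPM against 32.2 to 44.8 CPM in PBS, a log2 fold change of 0.85 (SE 0.26, adjusted p = 0.0141). Groups without overlap were found for these 3 genes and for 10.9% of all genes.

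Oasl2 rose by 1.14 (SE 0.31, adjusted p = 0.00810), and 4 of its tumors were at 154 to 283 CPM. Replicate 5, the tumor with 16.1% mitochondrial counts, lay at 82.1 CPM within the PBS range, although the same tumor had the highest Ifit2 (98.3 CPM), Isg15, Rsad2 (42.9 CPM) and Irf7 (297 CPM) of its group. Ifit2 rose by 0.87 (SE 0.23, adjusted p = 0.00716) and Rsad2 by 0.94 (SE 0.31, adjusted p = 0.0211), each with 1 tumor inside the PBS range. Without replicate 5, or without PBS replicate 1 or 2, Rsad2 was not called, and the other 5 genes were. Rsad2 and Oasl2 both lost their calls when the cisplatin groups were fitted together with these, and had them again once cisplatin+ICB replicate 1 was left out. Ifit1 (0.45), Irf7 (0.43), Mx1 (0.33) and Usp18 (-0.15) were not called.

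The combination was then compared with each of its parts. Against ICB, edgeR called 0 of 10 genes, where 0.229% of all genes were called, and the log2 fold changes lay between -0.39 (Mx1) and 0.50 (Ifit3). Ifit3 alone of the 10 had an unadjusted p under 0.05 (adjusted p = 0.443), beside 1947 of all 17916 genes tested. Against 5-FU, 0 of 10 were called, with 0.0112% of all genes called and values between 0.06 (Rsad2) and 0.54 (Isg15). Before adjustment 2 of the 10, Isg15 and Ifi44, were under 0.05, beside 2983 of all 17916 genes tested. DESeq2 also called 0 members in both, with 0.920% and 1.52% of all genes called. The 95% intervals were wide, reaching from -1.08 to 0.30 for Mx1 against ICB and from 0.04 to 1.05 for Isg15 against 5-FU.

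Whether the change from adding 5-FU differed with and without ICB was tested as an interaction, the effect of 5-FU+ICB against ICB minus that of 5-FU against PBS. EdgeR called 0 of 10 genes (0.0893% of all genes). An unadjusted p under 0.05 was found for 3 of the 10, all below 0. The same held for 4283 of all 17916 genes tested, 1632 of them below 0. Oasl2 was at -1.17 (SE 0.42, adjusted p = 0.108), Rsad2 at -0.92 (SE 0.42, adjusted p = 0.189) and Ifit2 at -0.85 (SE 0.32, adjusted p = 0.118). For Oasl2, group means were 84.9 CPM in PBS, 195 CPM with ICB, 173 CPM with 5-FU and 182 CPM with both. DESeq2 called Oasl2 alone of the 10 in this interaction, and 4.34% of all genes.

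With cisplatin alone, levels lay near those of PBS tumors. EdgeR and DESeq2 called 0 of 10, edgeR called 0% of the 17819 genes tested and DESeq2 0.0113% of those it tested. No gene of the 10 had an unadjusted p under 0.05 in edgeR, beside 317 of the 17819 genes. Log2 fold changes lay between -0.25 (Usp18) and 0.14 (Mx1), with a median of -0.03. Oasl2 was at 96.2, 90.7, 86.8 and 73.4 CPM and Ifit2 at 43.9, 42.1, 39.8 and 38.4 CPM, both inside the PBS range and closer together than the PBS tumors. Isg15 was spread more widely, from 19.2 to 53.6 CPM. Replicate 1 had the lowest level of 7 genes in its group and lay below every PBS tumor for 5 genes, while replicate 2 lay above every PBS tumor for 4. The upper limits of the 95% intervals were 1.17 for Oasl2, 0.92 for Rsad2, 0.79 for Ifit2, 0.57 for Ifi44 and 0.53 for Ifit3.

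With cisplatin+ICB, edgeR called 4.70% of all genes higher than in PBS tumors and 1.40% lower (DESeq2 6.09% in either direction). None of the 10 genes had an unadjusted p under 0.05 in edgeR, beside 4204 of the 17819 genes tested. EdgeR and DESeq2 called 0 of the 10. Replicate 1 decided this count. Oasl2 was at 12.6 CPM in it and at 232, 133, 234 and 161 CPM in the other 4 tumors. Ifit2 was at 19.5 CPM against 71.3, 50.8, 91.0 and 69.9 CPM, and Rsad2 at 5.83 CPM against 33.4, 18.8, 34.4 and 39.8 CPM. For these 3 genes the tumor lay below all 4 PBS tumors, whereas its Usp18 (89.0 CPM) was the highest of all 28 tumors and its Isg15 (71.1 CPM) the highest of its group. The log2 fold changes were 0.88 for Oasl2 (SE 0.52), 0.65 for Ifit2 (SE 0.32) and 0.82 for Rsad2 (SE 0.43).

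Without that tumor, 4 genes were called higher than PBS, with 18.2% of all genes called higher. They were Oasl2 (log2 fold change 1.26, adjusted p = 0.00451), Rsad2 (1.16, adjusted p = 0.0114), Ifit2 (0.95, adjusted p = 0.00543) and Ifi44 (0.75, adjusted p = 0.0328). Ifit3 (0.62) and Mx1 (0.74) remained uncalled, and Usp18 was at -0.39. Against cisplatin, 0 genes were called with the tumor (0% of all genes), and Ifit2, Rsad2 and Oasl2 were called without it (8.31% of all genes higher). Against ICB, edgeR called 0 of 10 with and without the tumor (0% of all genes in each) and DESeq2 0 with it (0.147% of all genes). Log2 fold changes with it ran from -0.58 (Ifit2) to 0.11 (Usp18). In the interaction of cisplatin with ICB, edgeR and DESeq2 called 0 of the 10 genes (0% and 0.00282% of all genes), and none of the 10 had an unadjusted p under 0.05, beside 1273 of the 17819 genes tested. Without replicate 1, edgeR again called 0 of the 10 in it, and 0% of all genes. What sets replicate 1 apart was not tested.

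The chemotherapies were also compared with each other, in 1 model of all 6 groups. Between 5-FU and cisplatin, edgeR called 0 of 10 genes, and 0.362% of all genes. Ifit3, Rsad2, Oasl2 and Ifi44 had an unadjusted p under 0.05, beside 2876 of all 18521 genes tested. Ifit3 differed by 0.83 (SE 0.28, adjusted p = 0.158), Rsad2 by 0.89 (SE 0.39, adjusted p = 0.271) and Oasl2 by 1.00 (SE 0.46, adjusted p = 0.301), all higher with 5-FU and without overlap between the 5 and the 4 tumors. Ifit2 did not overlap either (47.4 to 62.5 against 38.4 to 43.9 CPM), and such groups were found for 5.29% of all genes. DESeq2 called Ifit3 (1.81% of all genes), and a model of these 2 groups alone called Ifit3, Rsad2 and Oasl2 (3.03% of all genes higher). Between 5-FU+ICB and cisplatin+ICB, edgeR and DESeq2 called 0 of 10, with 0.297% and 4.42% of all genes called. Ifit3 (0.69) and Ifi44 (0.55) were under 0.05 before adjustment in edgeR, beside 4754 of all 18521 genes tested. Without cisplatin+ICB replicate 1, edgeR again called 0 (0.0596% of all genes), with Ifit3 at 0.57 and Ifi44 at 0.40.

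Seen tumor by tumor, the genes did not rise together to the same extent. Among the ICB tumors, between 3 and 9 of the 10 genes were above the highest PBS tumor, with 4 to 8 among the 5-FU, 5 to 8 among the 5-FU+ICB, 0 to 4 among the cisplatin and 2 to 9 among the cisplatin+ICB tumors. Of all 18521 genes tested, 27.1% to 33.9% were above the highest PBS tumor in an ICB tumor, 23.1% to 31.5% in a 5-FU, 26.2% to 34.7% in a 5-FU+ICB, 9.45% to 26.1% in a cisplatin and 26.3% to 41.0% in a cisplatin+ICB tumor. Outside the cisplatin group, counts of 2 to 4 members are thus near these shares. Cisplatin replicate 2 had 4 members above the highest PBS tumor with 9.45% of all genes, and replicate 4 had 2 with 16.3%. The mean log2 CPM of the 10 genes was 5.45 ± 0.37 (SD, n = 4) in PBS, 6.07 ± 0.41 (n = 5) in ICB, 5.90 ± 0.19 (n = 5) in 5-FU, 6.11 ± 0.32 (n = 5) in 5-FU+ICB, 5.42 ± 0.33 (n = 4) in cisplatin and 5.79 ± 0.50 (n = 5) in cisplatin+ICB tumors. The 5-FU tumors were the most alike. ICB replicate 5 was the lowest of its group, with Ifit1 (35.5 CPM) and Usp18 (30.7 CPM) below all PBS tumors, although its Oasl2 (145 CPM) and Ifit2 (60.9 CPM) were above them.

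**Figure D3:**
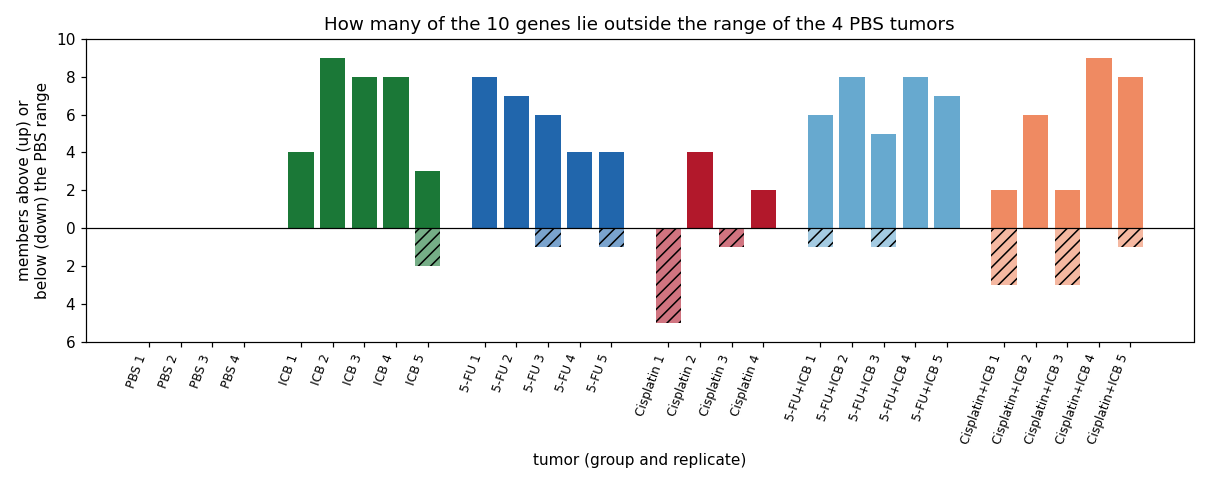
Number of the 10 genes above the highest (plain bars, upward) or below the lowest (hatched bars, downward) of the 4 PBS tumors, for each tumor. ICB, 5-FU and 5-FU+ICB tumors have 3 to 9 genes above the PBS range, and cisplatin replicate 1 has 5 below it. Of all genes tested, 23.1% to 34.7% are above that range in a tumor of these 3 groups.

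Other genes of the pathway, from lists chosen for their roles, were read beside the members. The 20 genes of type I and III interferons themselves were hardly detected: 10 were at 0 counts in all tumors, 9 never exceeded 3 counts, and Ifnb1 reached 4 counts in 1 tumor, so 0 of 20 could be tested at this depth. Ifng, the only gene of interferon gamma, rose from 0.343 ± 0.0952 CPM (SD, n = 4) in PBS to 13.1 ± 3.04 CPM (SD, n = 5) in ICB tumors, a log2 fold change of 5.26 (SE 0.57). It rose by 2.69 with 5-FU, 4.74 with 5-FU+ICB and 4.34 with cisplatin+ICB, where replicates 1 and 3 were at 0.848 and 0.913 CPM and the other 3 at 8.52 to 12.4 CPM.

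Of 12 receptor and signalling genes, 8 were called higher with ICB. For the type I receptor, Ifnar1 rose by 0.77 and Ifnar2 by 1.12, and of its kinases Tyk2 rose by 1.22, with Jak1 at 0.47 and not called. Jak2, another kinase of the list, rose by 1.42. Stat2 rose by 1.32, but its partner Irf9 was at 0.33 (adjusted p = 0.0781). Ifngr1 (1.17) and Il10rb (1.10) were also called, and Ifngr2 (0.22) and Ifnlr1 (-0.53) were not. With 5-FU+ICB 9 of 12 were called, among them Ifnar1 at 0.60, Ifnar2 at 1.17, Ifngr1 at 1.63, Il10rb at 0.92, Jak1 at 0.70, Jak2 at 1.40, Tyk2 at 0.65 and Stat2 at 1.01. Irf9 (0.44, adjusted p = 0.0233) passed the p but not the fold threshold. Ifngr2 (-0.05) and Ifnlr1 (-0.02) were not called and changed sign under DESeq2, its size factors and without the filter.

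Among 7 other interferon regulatory factors, 6 were called higher with ICB, among them the lymphoid factor Irf4 (3.03), Irf8 (2.31) and Irf1 (1.94). With 5-FU+ICB, 5 were higher and 1 lower, with Irf4 (3.76), Irf8 (2.16), Irf1 (1.51) and Irf5 (1.38) moving most. Of the 3 genes that attach the Isg15 protein, Uba7, the activating enzyme, rose by 1.38 and the ligase Herc6 by 1.13 with ICB, while Isg15 itself was not called. All 3 were called with 5-FU+ICB (Herc6 0.76, Uba7 0.72 and the conjugating enzyme Ube2l6 0.52). Of 4 feedback inhibitors other than Usp18, 3 rose with ICB (Socs1 1.98, Socs3 1.23 and Pias1 0.54) and 2 with 5-FU+ICB (Socs1 1.92 and Socs3 1.77). Usp18 was below 0 in both and not called.

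Among 44 further interferon-stimulated genes, 24 were called higher and 0 lower with ICB, led by Parp14 (2.33), Dtx3l (2.05), Slfn5 (1.84) and Zbp1 (1.64), and their median of 0.66 was close to the 0.67 of the members. With 5-FU+ICB, 29 were higher and 1 lower, led by Ifit1bl1 (2.45), Parp14 (2.24), Ifi205 (2.23) and Slfn5 (1.94), at a median of 0.74. Ifit1bl1 rested on replicate 5, without which it was at 0.78 and not called. The 17 interferon gamma targets changed more. All 17 were called higher with ICB, at a median of 2.80, with Nos2 at 7.78, Ido1 at 4.31, Cxcl9 at 4.17 and Gbp5 at 4.07. With 5-FU+ICB all 17 were called too, at a median of 2.64, with Nos2 at 6.03, Cxcl9 at 4.48, Ido1 at 4.07 and Gbp5 at 3.90. The smallest value among these targets with ICB, 1.12, was above the values of 8 of the 10 members. With 5-FU alone, 15 of 17 interferon gamma targets (median 1.70) and 15 of 44 further interferon-stimulated genes (median 0.39) were called higher, with cisplatin+ICB 14 of 17 (median 2.14) and 4 of 44 (median 0.41), and with cisplatin 0 of each. Of 12 receptor and signalling genes, 3 were called higher with 5-FU and 1 with cisplatin+ICB. These cisplatin+ICB counts come from the fit that includes replicate 1 and are not given without it. The difference between the lists was not tested.

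**Figure D4:**
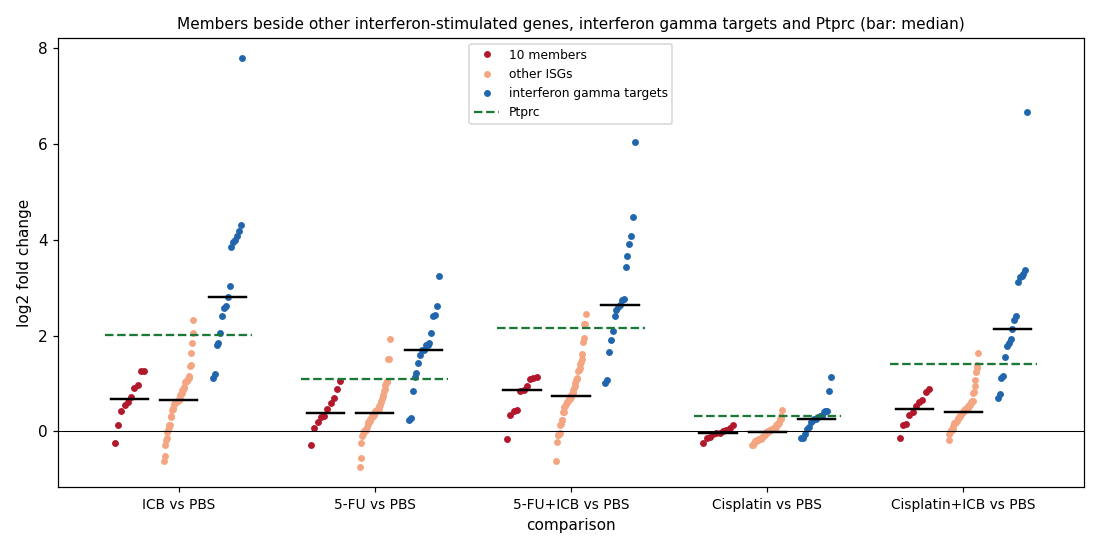
Log2 fold change against PBS of every tested gene of the members, of 44 other interferon-stimulated genes and of 17 interferon gamma targets (points, with a bar at the median), with Ptprc as a dashed line. The members' median is 0.67 with ICB beside 2.80 for the interferon gamma targets, and it lies below Ptprc in all 5 comparisons.

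Markers of infiltrating cells moved with the same treatments. Ptprc, the gene of the pan-leukocyte protein CD45, rose by 2.00 with ICB (SE 0.44, adjusted p = 0.00231), 2.15 with 5-FU+ICB and 1.41 with cisplatin+ICB (1.65 without replicate 1), and was at 1.09 with 5-FU (adjusted p = 0.0654). With ICB all 6 T cell markers were called higher, and their summed level was 160 to 638 CPM against 22.8 to 30.6 CPM in PBS. All 6 macrophage markers were called as well (2198 to 6030 against 1110 to 1503 CPM). The 4 markers of plasmacytoid dendritic cells, known for making interferon alpha, summed to 7.34 to 32.4 CPM with ICB and 8.38 to 13.4 CPM in PBS, and 1 of the 4 was called. Their sum was 10.9 to 52.6 CPM with 5-FU and 5.30 to 83.6 CPM with 5-FU+ICB, with 1 of the 4 called in each. With 5-FU, 4 of 6 T cell and 3 of 6 macrophage markers were called. With 5-FU+ICB the summed T cell markers ran from 44.9 to 1333 CPM, with cisplatin from 13.0 to 42.0 CPM, and with cisplatin+ICB from 20.9 to 348 CPM. Markers of other cells moved too. Of 4 skeletal muscle markers 0 were called with ICB, 5-FU or 5-FU+ICB, but their sums spread widely between tumors. They ran from 0.731 to 2910 CPM with ICB, 6.11 to 1212 CPM with 5-FU and 1.18 to 3922 CPM with 5-FU+ICB, against 88.0 to 153 CPM in PBS. Of 4 fibroblast markers 3 were called higher with 5-FU, summing to 2259 to 4353 CPM against 534 to 2174 CPM in PBS, and 2 of 4 with 5-FU+ICB (2315 to 3450 CPM). All 3 endothelial markers were called higher with 5-FU+ICB (145 to 589 against 60.6 to 119 CPM). With ICB and with 5-FU 1 of the 3 was called in each, at sums of 121 to 242 and 121 to 278 CPM. Of 5 neutrophil markers 4 were called higher with cisplatin+ICB (35.2 to 107 against 9.32 to 18.5 CPM). With ICB it was 2 of 5, at 59.5 to 166 CPM. Of 5 dendritic cell markers 2 were called higher with ICB and 3 with 5-FU+ICB. Of 3 B cell markers 2 were called higher with 5-FU+ICB. Other lists and groups are not all given here. The 7 mesothelial markers summed to 54.8 to 218 CPM with ICB, 46.8 to 178 CPM with 5-FU and 37.8 to 169 CPM with 5-FU+ICB, all below the 273 to 361 CPM of PBS tumors. With cisplatin+ICB that sum ran from 133 to 665 CPM. Msln made up 87.3% to 99.5% of the sum in 27 tumors and was called lower only with 5-FU+ICB, while Wt1 was called higher with ICB, 5-FU and 5-FU+ICB. Of the 4 mesothelial markers tested, 2 were called higher and 1 lower with 5-FU+ICB, at a median log2 fold change of 2.65. The median was 0.09 with ICB and -0.33 with 5-FU, so the fall of the sum was not shared by all markers. In whole tumors, fewer cells of a type and less RNA per cell cannot be told apart, and the part of these cells in the members' change was not tested.

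Subtracting the log2 CPM of Ptprc in each tumor shifts every gene of a tumor by the same amount, so it sets the members beside the leukocyte content and gives no separate evidence on them. The mean log2 CPM of the members less Ptprc was -1.74 to -0.76 in PBS and -3.09 to -1.76 in ICB tumors. Among 5-FU tumors, replicates 1, 2 and 4 were at -1.03, -1.04 and -0.76, close to PBS, and replicates 3 and 5 at -2.63 and -2.34. With 5-FU+ICB, replicate 2 (-0.24) was above every PBS tumor and the other 4 were below all of them. It ran from -2.20 to -0.47 with cisplatin and from -2.48 to -1.72 with cisplatin+ICB.

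The genes most like the members were looked for among 18511 other tested genes, by the mean absolute difference between a gene's standardised log2 CPM over the 28 tumors and the mean standardised profile of the members. The nearest were Daxx (0.353), Ifit1bl2 (0.382), Cmpk2 (0.383), Oasl1 (0.387) and Rtp4 (0.389), against a median of 0.966 over all genes, and all 5 are among the 44 further interferon-stimulated genes. Daxx was at 37.6 CPM in PBS, 54.5 CPM with ICB, 42.8 CPM with 5-FU, 60.6 CPM with 5-FU+ICB, 33.8 CPM with cisplatin and 42.1 CPM with cisplatin+ICB. Oasl1, a relative of Oasl2, went from 27.7 CPM in PBS to 55.7 CPM with ICB and 33.0 CPM with 5-FU. Among the members, Ifit3 lay closest to their mean profile (0.333) and Usp18 farthest (0.717), with Mx1 (0.626) and Oasl2 (0.577) next to it. The points share libraries and normalisation, and the likeness is a description.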

How the data were processed

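RNA of 28 whole tumors was sequenced (100-base single reads, per the labels). The authors assigned reads to GRCm38/mm10 transcripts with kallisto (version 0.46.0 in the submitters' processing notes), obtained gene-level values with tximport and deposited these estimated counts as they were, not normalized, in 2 tables, of which the 9 tumors of the PBS and ICB groups are part of both. Of these expected counts 23.7% were not whole and were rounded. The methods remove low counts, at a threshold not given in the sources used here. Kallisto divides reads between similar transcripts by likelihood, which bears on Ifit3, Ifit1 and Isg15, and the counting is not stated to use strand.

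After filterByExpr and TMM scaling, each table was analysed by edgeR 4.0.16 (glmQLFit, glmQLFTest) in R 4.3.3, with its 4 groups, no covariate and Benjamini-Hochberg adjustment over all 17916 or 17819 genes. Comparisons across tables used the joined table (18521 genes). Standard errors and 95% intervals came from the F statistic. CPM and log2 CPM (prior count 2) used TMM factors of the joined table. Depth makes counting error small for genes with over 100 counts, and it covers counting error only. Replicates differed by at least 18.5 times the sampling variance, so none was a duplicate. DESeq2 1.42.0 and the settings in the closing section were alternatives. The procedure was tested on simulated data.

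The members and the gene lists were chosen with earlier results of these data known. The text names all 10 members, tested ligand and receptor genes, up to 4 called genes of each other list with the largest change, Ptprc and the 5 nearest genes. Any other name was chosen after its values were seen. Some genes that this rule names are not reported here. Flow cytometry and survival data were not analysed here.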

Additional observations from a re-analysis of the deposited data

Results flagged for a closer look

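In 60 groups of a member, 6 treatment groups for each of 10 genes, the highest and lowest tumor were compared with the rest by Dixon's ratio on the log2 CPM scale. Chance alone flags about 1 in 20 such groups, and 1 was flagged here. Oasl2 in cisplatin+ICB replicate 1 was at 12.6 CPM, far below the 133 to 234 CPM of the other 4 tumors of its group. The gap took up 0.807 of the group's range, above the critical value of 0.71 for 5 tumors. The same tumor had low Ifit2 and Rsad2 and high Usp18, a mitochondrial share of 1.03% and a normalisation factor of 0.685. It also had the highest Msln of the 28 tumors (654 CPM). The part of these in the low Oasl2 value was not tested.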

How the results depend on the processing

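The alternatives were DESeq2, its size factors, no filter, no fold threshold, all 6 groups joined, the compared groups alone, the replicate block, each tumor left out and, chosen after seeing the data, leaving out cisplatin+ICB replicate 1 from larger models and adding Ifit3b to Ifit3. Of 2400 member values under an alternative, 127 changed sign, 0 of them called before or after. Of 14 called member values under 260 alternatives, 46 lost their call, and 20 uncalled values gained one over all comparisons.

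In brackets, after each count of members, is the share of all genes called higher. With ICB, 2 members were called in the cisplatin table (15.5%) and 2 in the joined table (15.5%), Ifit2 and Ifi44 in both, and 4 in each without cisplatin+ICB replicate 1 (22.3% and 19.4%). With 5-FU, 2 were called with no filter (3.82%), 0 in the joined table (2.84%), 3 in it without that tumor (11.1%) and 1, Oasl2, with the replicate block (7.19%), but 5, with Ifit2 added, in a model of the 2 groups alone (12.8%). With 5-FU+ICB, 4 were called in the joined table (18.9%). The replicate numbers did not pair the tumors (correlation of same-numbered deviations -0.63 to 0.66, median -0.02). The replicate block called 5 members with ICB (16.9%) and 5 with 5-FU+ICB (18.4%). Leaving out 1 tumor gave 3 to 6 calls with ICB (14.4% to 20.0%), 0 to 4 with 5-FU (3.43% to 10.5%), 5 to 6 with 5-FU+ICB (17.4% to 25.1%), 0 to 4 with cisplatin+ICB (0% to 18.2%) and 0 to 3 for cisplatin+ICB against cisplatin (0% to 8.31%). Between 5-FU and cisplatin DESeq2 called 1 (1.33%) and the 2 groups alone 3 (3.03%), and DESeq2 called 1, a lower value, in the interaction of 5-FU and ICB. In these cases the cause was not tested.

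With 1 tumor left out, Irf7 with 5-FU ran from -0.065 to 0.23, Usp18 from -0.33 to 0.032 with 5-FU+ICB and from -0.39 to 0.020 with cisplatin+ICB, Ifngr2 from -0.21 to 0.26 and Ifnlr1 from -0.72 to 0.29 with 5-FU+ICB. Ifngr2 was at 0.0067 with DESeq2, 0.011 with its size factors, 0.058 with no filter and 0.015 with the 2 groups alone, and Ifnlr1 at 0.033, 0.030, 0.0065 and 0.038. Less Ptprc, the mean log2 CPM of the members differed from PBS by -1.35 with ICB, -0.50 with 5-FU, -1.23 with 5-FU+ICB and -0.94 with cisplatin+ICB, in place of 0.61, 0.45, 0.66 and 0.33. With cisplatin the difference without that subtraction ran from -0.19 to 0.092 with 1 tumor left out.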
